A study of Rattus norvegicus with 10 samples.

Results

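Most of the genes described here build, move along or regulate microtubules and cilia, and they were measured in the rat choroid plexus, the epithelium within the brain ventricles that secretes cerebrospinal fluid. They were chosen by symbol: every gene named in the copy of the study's gene tables used here whose symbol starts with TUB, DYNL, DYNC, DCTN, IFT, CFAP, RSPH, TPPP, KIF, ARL, BBS, CETN, TEKT or CCDC, together with CALML4 and FOXJ1. This rule gave 48 genes of the 32883 listed, of which 9 have other or unassigned roles. That copy was shortened, so that most of its names come from the top of a list sorted by abundance, and it named 2001 genes by 1 symbol each. No symbol in it started with TPPP or BBS, and FOXJ1 and other ciliary genes outside it were not analysed here. Among the genes it holds, the members had mean levels from 44.9 (CCDC12) to 552 (CALML4) rescaled TPM. A TPM value is a transcript's share of all transcripts, scaled by transcript length.

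RNA was sequenced from the choroid plexus of 10 female Wistar rats aged 27 weeks, 1 library per animal with no pooling. In each rat the tissue came from the lateral and the fourth ventricle. The control group (n = 5) ate a nutrient source-matched control diet and the other group (n = 5) a high fat diet (HFD). The study's methods state that animals were chosen by body weight, control rats below a limit and HFD-fed rats above a higher one. The comparison below is thus of diet together with this choice by weight. Each library was sequenced to a nominal output of 12 Gb. The TPM of each library add up to a fixed total and keep no read number, so the number of reads behind a value is unknown and no counting interval is given. All 11 choroid plexus epithelium markers were above 0 in every rat. These markers come from the same shortened copy of mostly abundant genes, so their presence alone does not identify the tissue. The most abundant of them, TTR (transthyretin, the thyroid hormone carrier secreted by this epithelium), had 349157 rescaled TPM on average over the 10 rats.

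Microtubules are polymers of alpha and beta tubulin. Cytoplasmic dynein, with its cofactor dynactin, and the kinesins carry cargo along them, mostly in opposite directions. A cilium is built on a centriole-derived basal body and extended by intraflagellar transport. Motile cilia also contain axonemal dyneins, radial spokes and tektins. Choroid plexus epithelial cells carry tufts of cilia on the surface that faces the ventricle, and the ependymal cells next to them carry beating cilia, so RNA of the whole tissue can hold transcripts of both.

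RFX transcription factors bind the X-box in promoters of many ciliary genes, and GTTGCC is one arm of that motif. Promoters were searched for GTTGCC on both strands (GGCAAC on the other strand), from 250 bases before to 50 after each start, as given by RefSeq for GRCr8. This arm was in 12.2% of all 33469 promoters and in 13.7% of the 1541 that matched a gene named in the study's tables. Of the 48 members, 40 matched a promoter by symbol and 10 of these (25.0%) held it. It was in 4 of 7 promoters of the intraflagellar transport and ciliary GTPase genes (ARL6, CFAP36, DYNC2LI1 and IFT20). Among the motile axoneme and centriole genes it was in 5 of 11 promoters (CCDC113, CCDC181, CFAP20, CFAP298 and TEKT1). In the dynein, dynactin and kinesin genes it was in 1 of 7 (DYNLL1), and in the tubulins in 0 of 6. A match is a description of these letters and not evidence of binding.

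The 4 stretches below are shown because they belong to genes that were lower in HFD-fed rats by the unadjusted test. Each is 60 bases of GRCr8, 5′ to 3′ on the gene's strand, with the arm in capitals. The stretches lie at chr19:9522958-9523017 (minus strand, CCDC113), chr11:43677433-43677492 (minus strand, CFAP298), chr12:46972852-46972911 (plus strand, DYNLL1) and chr10:57479128-57479187 (minus strand, TEKT1), all before the annotated start.
CCDC113: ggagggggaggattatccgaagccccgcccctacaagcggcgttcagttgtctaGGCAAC
CFAP298: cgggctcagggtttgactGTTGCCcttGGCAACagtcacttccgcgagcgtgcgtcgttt
DYNLL1: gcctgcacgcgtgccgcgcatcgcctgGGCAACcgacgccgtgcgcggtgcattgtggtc
TEKT1: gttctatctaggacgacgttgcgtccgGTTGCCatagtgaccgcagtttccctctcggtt
The CFAP298 stretch holds the arm in both orientations, 3 bases apart. Its promoter holds another such pair outside the stretch shown, at -231 to -226 and -223 to -218 from the start. The matched promoter of TUBA4A, the remaining gene that was lower by this test, did not hold these letters. ARL6, CCDC181, CFAP20, CFAP36, DYNC2LI1 and IFT20 held them without an unadjusted p under 0.05. A link between these letters and diet was not tested.

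The library of control rat 1 was unlike the remaining 9. To rescale TPM, each rat was divided by a factor, its median ratio to the average rat taken across 12037 genes. The factor was 0.747 in control rat 1 and between 0.944 and 1.13 elsewhere. In rescaled TPM, control rat 1 differed more than 2-fold from the remaining rats' median for 1842 genes, and no other rat did so for fewer than 171 or more than 235. TTR had 532178 rescaled TPM in control rat 1, 316580 to 326440 in the other control rats and 287847 to 404923 in HFD-fed rats. None of the 48 members differed that far in control rat 1, but it was the highest rat for 27 of them. Log2 fold changes without control rat 1 are therefore given beside many of those of all 10 rats.

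**Figure D1:**
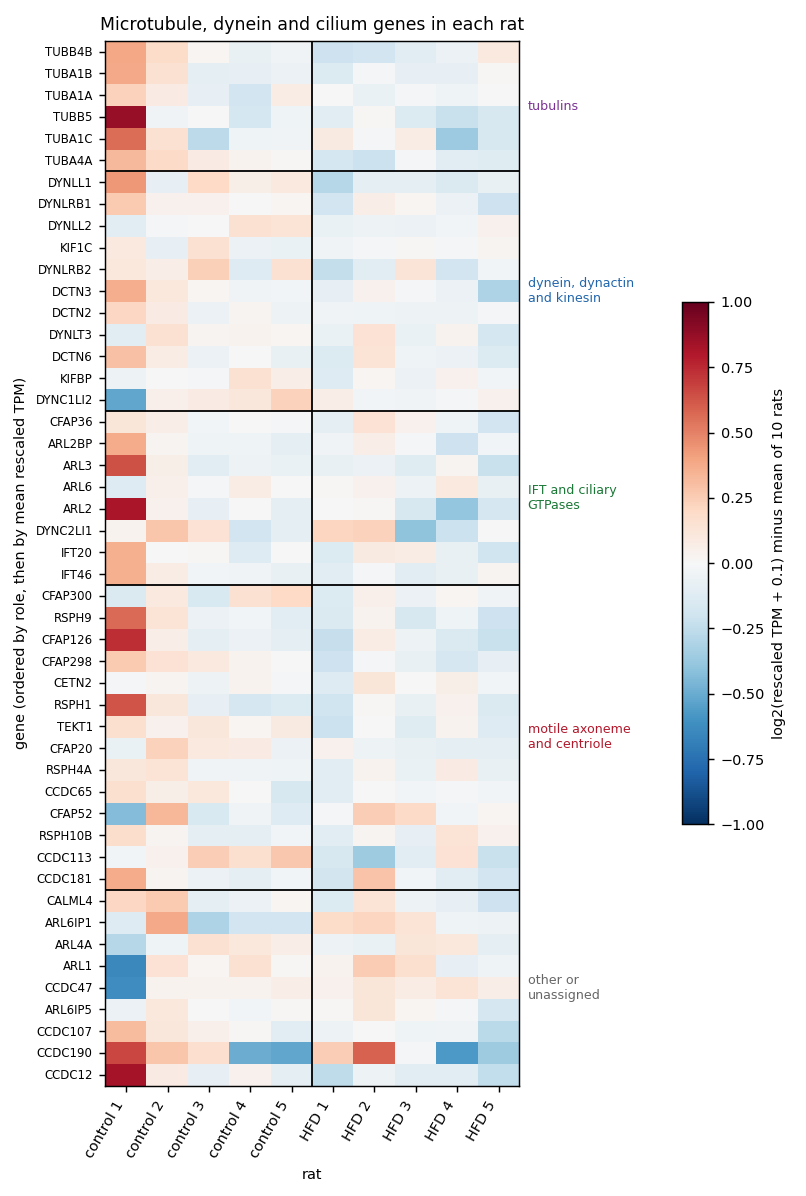
Colours show log2(rescaled TPM + 0.1) of each of the 48 genes (vertical axis, grouped by role) in each of the 10 rats (horizontal axis), as the difference from that gene's mean over the rats. The column of control rat 1 holds the strongest reds and blues, and rows such as TUBB5, ARL2 and CCDC12 are deep red in that rat only.

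The question put to these genes was whether their level differed between the diet groups. All 48 had a mean rescaled TPM of at least 1 and were tested with limma among 12198 genes on log2(rescaled TPM + 0.1), the scale of all fold changes below. After Benjamini-Hochberg adjustment over all genes tested, 0 members and 0 genes overall had a p under 0.05, and the smallest adjusted p of a member was 0.542. At an unadjusted p under 0.05, 5 members were lower in HFD-fed rats (TUBA4A, CFAP298, DYNLL1, CCDC113 and TEKT1) and 0 were higher. The 5 lower genes are 10.4% of the members. Lower at the same threshold were 4.83% of all genes tested and 13.3% of the genes named in the study's tables, a set that is mostly abundant like the members. Higher were 3.76% of all genes tested and 1.6% of the named genes. The members' share of lower genes was thus near that of the named genes.

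The mean was lower in HFD-fed rats for 39 of the 48 members (81.2%), against 70.3% of the named genes and 47.3% of all genes tested. The median log2 fold change was -0.09 for the members, -0.08 for the named genes and 0.01 for all genes tested. Every HFD-fed rat lay below every control rat for 2 members (4.17%), CFAP298 and TUBA4A, against 2.02% of all genes tested and 6.85% of the named genes. In these RNA samples of whole tissue, fewer cells of a type and less RNA per cell cannot be told apart.

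The scaling moves all genes of a rat alike, so it shifts every fold change by about the same amount, and the sign of a small one depends on it. With TPM as deposited, the median over all genes tested shifted to a log2 fold change of 0.12, that of the members was 0.01, and the mean was lower in HFD-fed rats for 22 of the 48 members (45.8%), 44.5% of the named genes and 27.0% of all genes tested. No member was then lower with an unadjusted p under 0.05, against 1.26% of all genes tested and 4.05% of the named genes. The median log2 fold change of the named genes was then 0.02. Relative to the median of all genes tested, the members' median was -0.105 with rescaled TPM and -0.104 with TPM as deposited, and that of the named genes -0.0969 and -0.0962. That these pairs are alike follows from how the scaling works and is no separate support. Without control rat 1, 8 members (16.7%) were lower with an unadjusted p under 0.05, against 6.33% of all genes tested and 17.0% of the named genes. These were the 5 above with CCDC12, CFAP20 and DYNC1LI2, and the median of the members was -0.06.

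**Figure D2:**
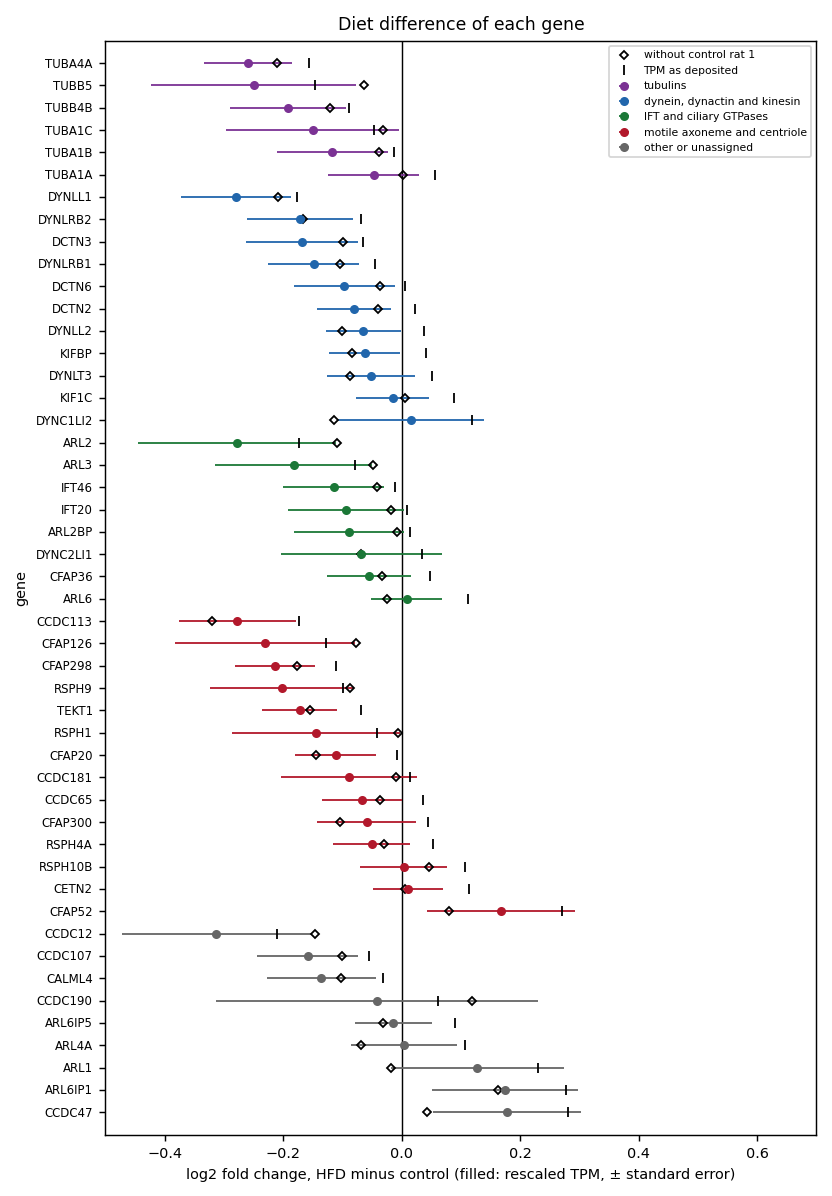
Filled points show the log2 fold change (HFD minus control, horizontal axis) of each member (vertical axis, coloured by role) with its standard error, open diamonds the value without control rat 1 and vertical ticks the value from TPM as deposited. Most filled points lie left of 0, the ticks lie further right by about the same distance in every row, and the diamonds of TUBB5, ARL3 and RSPH1 lie close to 0.

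All 6 tubulins had a lower mean in HFD-fed rats, with a median log2 fold change of -0.17. This was -0.05 without control rat 1 and -0.07 with TPM as deposited, and under both of these the log2 fold change of TUBA1A was above 0. TUBA4A, an alpha tubulin isotype, was the only tubulin called. TUBA4A (ENSRNOG00000003597) had 60.8, 55.3, 51.1, 49.7 and 48.9 rescaled TPM in control rats 1 to 5 and 42.8, 41.7, 47.8, 44.8 and 44.6 in HFD-fed rats 1 to 5. The diets did not overlap, and the lowest control rat was just above the highest HFD-fed rat. The means were 53.1 ± 4.93 and 44.3 ± 2.33 (SD, n = 5 each), and the log2 fold change was -0.26 (standard error 0.07, limma, unadjusted p = 0.00518, adjusted p = 0.542). The exact two-sided permutation test gave p = 0.00794, the smallest that 5 rats against 5 allow. The log2 fold change was -0.21 without control rat 1 and -0.16 with TPM as deposited.

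TUBB4B, the beta tubulin isotype typical of cilia, was the most abundant tubulin. TUBB4B (ENSRNOG00000010170) had 673, 584, 523, 490 and 503 rescaled TPM in control rats 1 to 5 and 446, 452, 476, 495 and 550 in HFD-fed rats 1 to 5. The values overlapped, and control rat 1 was the highest of all. The log2 fold change was -0.19 (standard error 0.10, exact permutation p = 0.0952) and -0.12 without control rat 1.

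TUBA1A, TUBA1B and TUBA1C are near copies of each other, so that the quantification could split their reads wrongly. TUBA1B (ENSRNOG00000053468) had 508 ± 75.4 rescaled TPM in control rats and 465 ± 19.3 in HFD-fed rats (SD, n = 5 each). TUBA1A (ENSRNOG00000060728) had 94.3 ± 10.4 and 90.8 ± 1.88, and TUBA1C (ENSRNOG00000021438) 64.4 ± 14.6 and 57.4 ± 7.25 (SD, n = 5 each). The log2 fold change of TUBA1B went from -0.12 to -0.04 without control rat 1, and that of TUBA1C from -0.15 to -0.03. TUBA1B made up 76.2% ± 0.794 of the sum of these genes in control rats and 75.8% ± 1.44 in HFD-fed rats (SD, n = 5 each; exact permutation p = 0.690). This share does not depend on the scaling between rats. It belongs to a set of 4 ratios chosen after the values had been seen, with a smallest adjusted p of 0.476.

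TUBB5, a beta tubulin of many cell types, varied most among the tubulins. Control rat 1 had 154 rescaled TPM of TUBB5 (ENSRNOG00000061216), the other control rats 74.3 to 84.1 and HFD-fed rats 71.8 to 84.4. Its log2 fold change went from -0.25 to -0.06 without control rat 1. The ratio of TUBB4B to TUBB5 was 6.11 ± 1.04 in control rats and 6.31 ± 0.812 in HFD-fed rats (SD, n = 5 each; exact permutation p = 0.738).

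Among the 11 genes of cytoplasmic dynein, dynactin and kinesin, 10 had a lower mean in HFD-fed rats and 1, DYNLL1, was called. The median log2 fold change was -0.08, -0.10 without control rat 1 and 0.02 with TPM as deposited. DYNLL1 encodes the LC8 light chain, a small dimer that dynein shares with many other protein complexes. DYNLL1 (ENSRNOG00000011222) had 625, 438, 534, 482 and 495 rescaled TPM in control rats 1 to 5 and 380, 436, 433, 419 and 440 in HFD-fed rats 1 to 5. Control rat 1 was the highest, and only control rat 2 lay within the range of the HFD-fed rats. The means were 515 ± 70.5 and 422 ± 24.3 (SD, n = 5 each), and the log2 fold change was -0.28 (standard error 0.09, exact permutation p = 0.0159). It was -0.21 without control rat 1 and -0.18 with TPM as deposited. DYNLL1 is also listed among the genes the study called on these same rats, so its direction here is not independent evidence. The study's call came from its own test on raw counts at an adjusted p under 0.05, unlike the unadjusted threshold used here. The adjusted limma p of DYNLL1 here was 0.542.

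DYNLL2 encodes the second LC8 light chain. DYNLL2 (ENSRNOG00000008921) had 168, 178, 180, 201 and 199 rescaled TPM in control rats 1 to 5 and 172, 174, 173, 177 and 186 in HFD-fed rats 1 to 5. Here control rat 1 was the lowest of all rats, whereas it was the highest for DYNLL1. The log2 fold change of DYNLL2 was -0.07 (standard error 0.06, exact permutation p = 0.262), -0.10 without control rat 1 and 0.04 with TPM as deposited. The ratio of DYNLL1 to DYNLL2, which no scaling changes, was 2.81 ± 0.557 in control rats and 2.39 ± 0.120 in HFD-fed rats (SD, n = 5 each; exact permutation p = 0.119). Control rat 1 had a ratio of 3.72, the other control rats 2.40 to 2.96 and HFD-fed rats 2.21 to 2.50.

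The roadblock light chains DYNLRB1 and DYNLRB2 form another pair of dynein light chains, and DYNLRB2 is mainly a gene of ciliated cells. DYNLRB1 (ENSRNOG00000025715) had 425 ± 32.0 rescaled TPM in control rats and 383 ± 31.9 in HFD-fed rats (SD, n = 5 each; exact permutation p = 0.0873). This is a log2 fold change of -0.15, and of -0.10 without control rat 1. DYNLRB2 (ENSRNOG00000012450) had 153, 149, 168, 130 and 158 in control rats 1 to 5 and 121, 132, 156, 124 and 140 in HFD-fed rats 1 to 5. The ranges overlapped over most of their length, with a log2 fold change of -0.17 (standard error 0.09, exact permutation p = 0.103), which was also -0.17 without control rat 1. The ratio of DYNLRB1 to DYNLRB2 was 2.82 ± 0.301 in control rats and 2.86 ± 0.301 in HFD-fed rats (SD, n = 5 each; exact permutation p = 0.794).

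DYNC1LI2, a light intermediate chain that links dynein to cargo adaptors, turned with control rat 1. DYNC1LI2 (ENSRNOG00000025791) had 32.4 rescaled TPM in control rat 1, 48.2 to 54.4 in the other control rats and 45.3 to 48.7 in HFD-fed rats. The log2 fold change was 0.02 (standard error 0.12) in all 10 rats and -0.11 without control rat 1, where the unadjusted p was 0.0442. The dynactin subunits DCTN2, DCTN3 and DCTN6 had log2 fold changes of -0.08, -0.17 and -0.10, which were -0.04, -0.10 and -0.04 without control rat 1. The kinesin KIF1C and the kinesin-binding protein KIFBP had -0.02 and -0.06, and the light chain DYNLT3 had -0.05. These were 0.01, -0.08 and -0.09 without control rat 1. None of these genes was called in either fit.

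None of the 8 intraflagellar transport and ciliary GTPase genes was called, and 7 had a lower mean in HFD-fed rats. The median log2 fold change was -0.09, -0.04 without control rat 1 and 0.01 with TPM as deposited. ARL2 and ARL3 are small GTPases that release lipid-anchored proteins from their carriers, and ARL3 does so inside cilia. ARL2 (ENSRNOG00000021010) had 114, 66.7, 61.1, 65.0 and 60.7 rescaled TPM in control rats 1 to 5 and 64.9, 65.3, 57.9, 49.4 and 57.7 in HFD-fed rats 1 to 5. Apart from control rat 1 the ranges overlapped, and the log2 fold change of -0.28 (standard error 0.17, exact permutation p = 0.135) became -0.11 without it. ARL3 had a log2 fold change of -0.18 and of -0.05 without that rat.

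CFAP36, an ARL3-binding protein, was the most abundant gene of this role. CFAP36 (ENSRNOG00000003901) had 228 ± 9.99 rescaled TPM in control rats and 220 ± 20.0 in HFD-fed rats (SD, n = 5 each; exact permutation p = 0.413). ARL2BP (ENSRNOG00000016991), which binds ARL2, had 116 ± 16.2 and 108 ± 7.22 (SD, n = 5 each; exact permutation p = 0.500). Their log2 fold changes were -0.06 and -0.09, and without control rat 1 -0.03 and -0.01. ARL6, the GTPase that recruits the BBSome coat to membranes, had the highest log2 fold change of the role with all 10 rats. ARL6 (ENSRNOG00000001689) had 71.9 ± 3.89 rescaled TPM in control rats and 72.3 ± 3.48 in HFD-fed rats (SD, n = 5 each), and the log2 fold change was 0.01, or -0.02 without control rat 1. The intraflagellar transport subunits IFT20 and IFT46 had log2 fold changes of -0.09 and -0.11, and without control rat 1 of -0.02 and -0.04. DYNC2LI1, a light intermediate chain of the dynein that moves cargo back along the cilium, had -0.07. This was also -0.07 without control rat 1 and 0.03 with TPM as deposited. Over the 10 fits that left out 1 rat, it ran from -0.13 to 0.02.

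Of the 14 motile axoneme and centriole genes, 3 were lower in HFD-fed rats at an unadjusted p under 0.05, as were 4.83% of all genes tested and 13.3% of the named genes. The mean was lower for 11 of them, against 47.3% of all genes tested and 70.3% of the named genes, shares that also stand beside the counts of the other roles. Their median log2 fold change was -0.10, -0.06 without control rat 1 and 0.00 with TPM as deposited. The called genes CFAP298, TEKT1 and CCDC113 were not the most abundant of the role, which were CFAP300 and RSPH9.

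CFAP298 takes part in the assembly of the dynein arms of motile cilia. CFAP298 (ENSRNOG00000021399) had 205, 189, 183, 176 and 171 rescaled TPM in control rats 1 to 5 and 148, 170, 163, 153 and 162 in HFD-fed rats 1 to 5. The diets did not overlap, but control rat 5 and HFD-fed rat 2 lay next to each other. The means were 185 ± 13.4 and 159 ± 8.80 (SD, n = 5 each), and the log2 fold change was -0.21 (standard error 0.07, exact permutation p = 0.00794). It was -0.18 without control rat 1 and -0.11 with TPM as deposited.

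TEKT1 encodes a tektin, a filament protein inside the doublet microtubules. TEKT1 (ENSRNOG00000014973) had 86.0, 79.3, 83.2, 77.7 and 81.5 rescaled TPM in control rats 1 to 5 and 66.2, 76.4, 70.8, 78.9 and 70.0 in HFD-fed rats 1 to 5. Only HFD-fed rat 4 reached into the range of the control rats. The means were 81.5 ± 3.27 and 72.4 ± 5.09 (SD, n = 5 each), and the log2 fold change was -0.17 (standard error 0.06, exact permutation p = 0.0159). It was -0.15 without control rat 1 and -0.07 with TPM as deposited. Without HFD-fed rat 1 it was -0.14, and the unadjusted limma p was then not under 0.05. With the replicate number as a block the unadjusted limma p was 0.061.

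CCDC113 is a protein of the axoneme and of centriolar satellites. CCDC113 (ENSRNOG00000051510) had 51.5, 54.1, 62.3, 58.7 and 63.2 rescaled TPM in control rats 1 to 5 and 47.1, 41.0, 48.8, 58.1 and 45.0 in HFD-fed rats 1 to 5. HFD-fed rat 4 lay among the control rats, and control rat 1 was the lowest of its group. The means were 58.0 ± 5.08 and 48.0 ± 6.36 (SD, n = 5 each), and the log2 fold change was -0.28 (standard error 0.10, exact permutation p = 0.0317). This gene differed more without control rat 1 (-0.32) and less with TPM as deposited (-0.17).

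**Figure D3:**
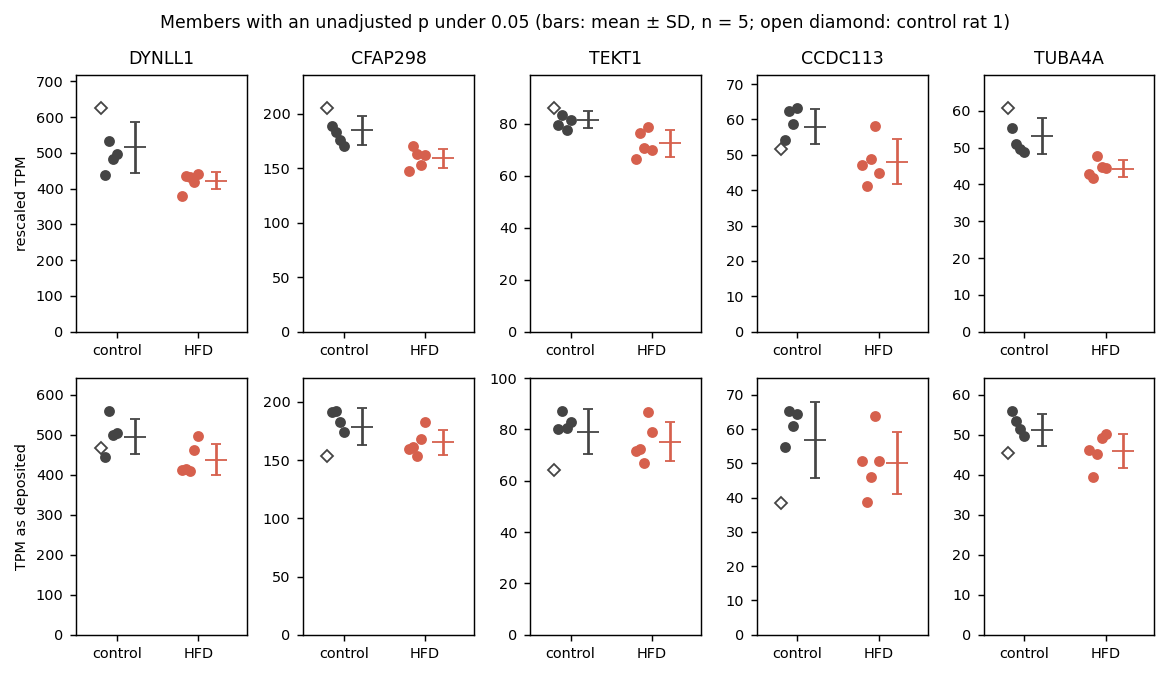
Points show the level of the 5 members with an unadjusted p under 0.05 in each rat, as rescaled TPM (upper row) and as deposited TPM (lower row), both on linear axes from 0, with bars for the mean ± SD of 5 rats. In the upper row CFAP298 and TUBA4A do not overlap between diets. In the lower row control rat 1 (open diamond) lies at or near the bottom of its group and every gene overlaps.

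CFAP300, another factor of dynein arm assembly, was the most abundant gene of this role. CFAP300 (ENSRNOG00000043410) had 231, 272, 230, 283 and 293 rescaled TPM in control rats 1 to 5 and 232, 264, 245, 259 and 249 in HFD-fed rats 1 to 5. The HFD-fed rats all lay inside the range of the control rats (log2 fold change -0.06, exact permutation p = 0.468). It was -0.10 without control rat 1. RSPH9 (ENSRNOG00000019474), a subunit of the radial spoke head, had 360, 268, 234, 239 and 225 in control rats 1 to 5 and 221, 250, 218, 237 and 211 in HFD-fed rats 1 to 5. Its log2 fold change of -0.20 (standard error 0.12, exact permutation p = 0.127) became -0.09 without control rat 1, which was far above the rest. The other radial spoke genes RSPH1, RSPH4A and RSPH10B had log2 fold changes of -0.14, -0.05 and 0.00, which were -0.01, -0.03 and 0.05 without control rat 1. RSPH1 had 118 rescaled TPM in control rat 1 and 67.4 to 82.4 in the other control rats.

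CFAP52, a protein on the inner face of doublet microtubules, had the highest log2 fold change of the axonemal genes. CFAP52 (ENSRNOG00000037718) had 46.8, 79.3, 56.7, 61.7 and 57.7 rescaled TPM in control rats 1 to 5 and 62.5, 75.0, 72.3, 61.8 and 64.1 in HFD-fed rats 1 to 5. Control rat 1 was the lowest of all rats and control rat 2 the highest. The log2 fold change was 0.17 (standard error 0.13, exact permutation p = 0.222), 0.08 without control rat 1 and 0.27 without control rat 2. CETN2, a centrin of the centriole, had a log2 fold change of 0.01 both with all rats (standard error 0.06) and without control rat 1.

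Averaged over the genes of a role, the diets overlapped in every role but the dynein, dynactin and kinesin genes. The mean log2 level of the latter was 6.90 to 6.96 in control rats and 6.77 to 6.88 in HFD-fed rats, while that of all named genes was 6.89 to 6.99 and 6.83 to 6.95. With TPM as deposited these 11 genes overlapped too, with 6.54 in control rat 1, below every HFD-fed rat (6.77 to 6.97).

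**Figure D4:**
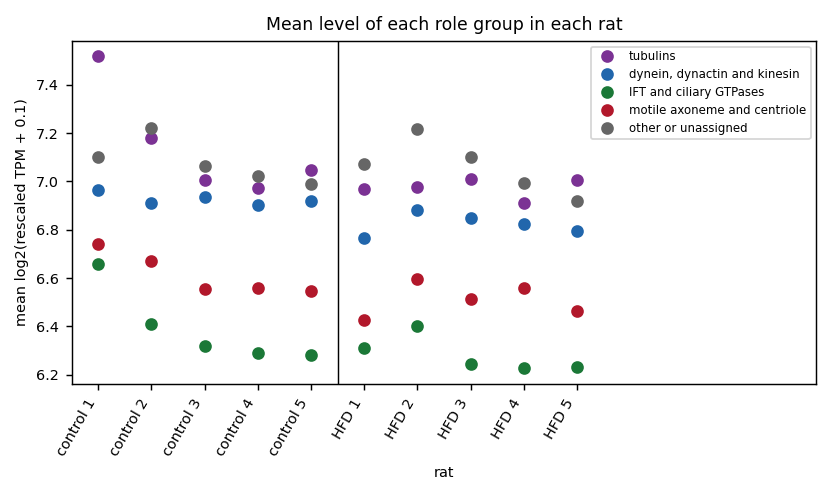
Points show, for each rat (horizontal axis), the mean of log2(rescaled TPM + 0.1) over the genes of each role (vertical axis). The tubulins of control rat 1 lie highest of all points, and the diets overlap in every role but the dynein, dynactin and kinesin genes (6.77 to 6.88 in HFD-fed rats and 6.90 to 6.96 in control rats).

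The remaining 9 members had other or unassigned roles, and none was called. The mean was lower in HFD-fed rats for 5 and higher for 4. Their median log2 fold change was -0.01, -0.03 without control rat 1 and 0.09 with TPM as deposited. CALML4, a calmodulin-like protein, was the most abundant of all members. CALML4 (ENSRNOG00000038202) had 634, 659, 516, 526 and 556 rescaled TPM in control rats 1 to 5 and 501, 603, 530, 518 and 476 in HFD-fed rats 1 to 5. The ranges overlapped, with a log2 fold change of -0.14 (standard error 0.09, exact permutation p = 0.183), and -0.10 without control rat 1.

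CCDC12, a spliceosome protein, had the lowest log2 fold change of all members, -0.31 (standard error 0.16). CCDC12 (ENSRNOG00000020946) had 77.9 rescaled TPM in control rat 1, 41.2 to 46.3 in the other control rats and 36.6 to 42.2 in HFD-fed rats. Limma gave an unadjusted p of 0.0758 and the exact permutation test 0.0397. Without control rat 1 the log2 fold change was -0.15, and CCDC113 was then the lowest with -0.32. CCDC47, a protein of the endoplasmic reticulum, had the highest log2 fold change, 0.18 (standard error 0.12). CCDC47 (ENSRNOG00000009006) had 82.7 rescaled TPM in control rat 1, 130 to 134 in the other control rats and 131 to 140 in HFD-fed rats. The exact permutation p was 0.0317 and the limma unadjusted p was 0.182. Without control rat 1 the log2 fold change was 0.04, and ARL6IP1 was then the highest with 0.16. ARL6IP1 (ENSRNOG00000017751), which shapes the endoplasmic reticulum, had 443, 630, 390, 424 and 424 in control rats 1 to 5 and 549, 561, 531, 470 and 468 in HFD-fed rats 1 to 5. All HFD-fed rats lay above all control rats but control rat 2 (log2 fold change 0.17, exact permutation p = 0.238). Without control rat 2 it was 0.29, and without control rat 1 it was 0.16.

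The members differed in how much they varied within a diet. The within-diet SD of log2 values had a median of 0.144 over the members, 0.157 over the named genes and 0.215 over all genes tested. Without control rat 1 these medians were 0.0922, 0.0966 and 0.143. CCDC190 varied most, with an SD of 0.491. CCDC190 (ENSRNOG00000025005) had 91.6, 69.9, 64.6, 40.7 and 40.2 rescaled TPM in control rats 1 to 5 and 68.2, 86.6, 56.9, 38.6 and 45.0 in HFD-fed rats 1 to 5. In each diet, rats 4 and 5 were the lowest, and the diet means of 61.4 and 59.1 lay close together. The difference between them was -0.04 on the log2 scale, and 0.12 without control rat 1. CCDC47 varied least without control rat 1, with an SD of 0.0323.

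Other genes of these pathways named in the same copy were described from lists beside the members. Of 25 further ciliary genes, 4 were lower in HFD-fed rats at an unadjusted p under 0.05, as were 4.83% of all genes tested and 13.3% of the named genes, and 0 were higher, with a median log2 fold change of -0.07. With TPM as deposited, 0 of them had an unadjusted p under 0.05 and the median was 0.03. TMEM107 (ENSRNOG00000006519), a protein of the ciliary transition zone, had 49.5 ± 2.36 rescaled TPM in control rats and 38.8 ± 2.10 in HFD-fed rats (SD, n = 5 each; exact permutation p = 0.00794). Its log2 fold change was -0.35, -0.36 without control rat 1 and -0.25 with TPM as deposited. UNC119 (ENSRNOG00000011060), which carries lipid-anchored proteins to cilia and gives them up to ARL3, had 138 ± 14.5 and 116 ± 2.32 (SD, n = 5 each; exact permutation p = 0.00794), with a log2 fold change of -0.25 that was -0.19 without control rat 1 and -0.15 with TPM as deposited. UNC119 is also among the genes the study called on these rats, by its own test at an adjusted p under 0.05. Its adjusted limma p here was 0.542. B9D2, of the transition zone, and ZMYND10, of dynein arm assembly, had log2 fold changes of -0.21 and -0.27, of -0.15 each without control rat 1, and of -0.11 and -0.16 with TPM as deposited. Control rat 1 had 110 rescaled TPM of ZMYND10, and the other control rats had 68.9 to 85.4. Of the 10 fits that left out 1 rat, B9D2 had an unadjusted p under 0.05 in 5 and ZMYND10 in 4. TMEM107 and UNC119 had it in all 10.

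Of 16 genes of dynactin, dynein cofactors and tubulin folding, 1 was lower in HFD-fed rats and 0 were higher at an unadjusted p under 0.05, where 4.83% of all genes tested and 13.3% of the named genes were lower. Without control rat 1, 5 were lower, against 6.33% of all genes tested and 17.0% of the named genes. With TPM as deposited, 0 were lower. CCT3 (ENSRNOG00000019090), a subunit of the chaperonin that folds tubulin and actin, had 69.0 ± 1.78 rescaled TPM in control rats and 61.1 ± 3.03 in HFD-fed rats (SD, n = 5 each; exact permutation p = 0.00794). This is a log2 fold change of -0.18, and of -0.07 with TPM as deposited (exact permutation p = 0.484). ACTR1A (ENSRNOG00000019725), the actin-related protein of the dynactin filament, had 63.0 ± 3.78 and 58.5 ± 0.857 (SD, n = 5 each), with the diets not overlapping (exact permutation p = 0.00794) and a limma p of 0.0945. Its log2 fold change was -0.10, -0.08 without control rat 1 and 0.00 with TPM as deposited.

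Markers of the cell types in this tissue are given beside these results, and their part in them was not tested. Of the 11 epithelium markers, 2 were higher in HFD-fed rats at an unadjusted p under 0.05 and 0 were lower, where 3.76% of all genes tested and 1.6% of the named genes were higher. The mean was lower in HFD-fed rats for TTR, FOLR1 and AQP1, with log2 fold changes of -0.10, -0.16 and -0.05, and of 0.04, -0.09 and -0.18 without control rat 1. Without that rat, AQP1 was lower with a limma unadjusted p of 0.0217 and 2 markers were higher. With TPM as deposited, HTR2C alone was higher at this threshold. HTR2C, the serotonin 2C receptor, had 397 ± 21.6 rescaled TPM in control rats and 458 ± 41.0 in HFD-fed rats, and KL (klotho) had 375 ± 58.5 and 448 ± 17.9 (SD, n = 5 each; exact permutation p = 0.0159 for HTR2C and 0.00794 for KL). Their log2 fold changes were 0.20 and 0.27, and without control rat 1 0.19 and 0.16. Of the 7 ependymal markers only DYNLRB2, itself a member, and RARRES2 were analysed here. RARRES2 had 53.2 ± 14.1 rescaled TPM in control rats and 51.9 ± 13.8 in HFD-fed rats (SD, n = 5 each; exact permutation p = 0.857). The difference was -0.04 on the log2 scale, and 0.09 without control rat 1. Both together summed to 229, 206, 216, 173 and 199 rescaled TPM in control rats 1 to 5 and to 192, 187, 203, 177 and 173 in HFD-fed rats 1 to 5, with DYNLRB2 the more abundant. The sums of the diets overlapped. None of the markers analysed was at 0 in any rat.

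Of the markers of other cells, none had an unadjusted p under 0.05. The stromal markers DCN and IGFBP7 had log2 fold changes of 0.30 and -0.12, the vascular markers RGS5 and PLVAP 0.36 and -0.19, and the macrophage markers CD74 and LYZ2 0.12 and 0.09. Without control rat 1 they were 0.19 and -0.04 for DCN and IGFBP7, 0.09 and -0.05 for RGS5 and PLVAP, and 0.12 and -0.04 for CD74 and LYZ2. RGS5 had 42.8 rescaled TPM in control rat 1 and 106 to 110 in the other control rats, and PLVAP 97.5 and 53.8 to 62.4. The log2 fold changes of the 4 haemoglobin genes ran from -0.32 to -0.13, with a median of -0.25, and of -0.15 without control rat 1. These genes summed to 7803, 6908, 3658, 6274 and 3808 rescaled TPM in control rats 1 to 5 and to 4754, 4184, 4561, 6396 and 3102 in HFD-fed rats 1 to 5. HBA-A1 was the most abundant of them, and the sums of both diets overlapped. Neuron and glia markers were not analysed here.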

How the data were processed

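Per the labels, the authors used STAR 2.7.2a for alignment (Rnor_6.0) and RSEM 1.3.3 for quantification, while the study's methods name another STAR version. For every gene, TPM and FPKM were deposited with 2 decimals. The deposited FPKM are a constant multiple of the TPM within a rat, so only TPM were tested. Gene names came from a shortened copy of the study's tables, which named 2015 identifiers, and 7 symbols that pointed to several identifiers were dropped. The members and lists were chosen with earlier results of these data known.

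TPM were rescaled by median ratios, with a pseudocount of 0.1 and a minimum mean of 1. The test was lmFit and eBayes with a trend in limma 3.58.1 (R 4.3.3), without covariates beside diet, and p-values were adjusted by Benjamini-Hochberg across the 12198 genes. Single genes were also compared by an exact two-sided permutation test over 252 assignments of the rats. The test was tried on simulated data with known changes, but the outcome is not given here and no result rests on it. Raw counts, on which the authors ran their own test, were not used here. In each role, the genes named were those with an unadjusted p under 0.05, the 2 most abundant and those with the lowest and the highest log2 fold change, with the near copies of dynein light chains and alpha tubulins. In each other list they were the 2 with the smallest p. Further genes named were chosen after their values were seen. Tables and plots were made with pandas 2.3.3 and matplotlib 3.10.9 (python 3.11.15). The promoter search, planned for the axonemal genes, was extended to all members.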

Additional observations from a re-analysis of the deposited data

Results flagged for a closer look

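Dixon's ratio, the gap of the highest or lowest rat to the nearest of the others as a share of the group's range, was computed in each diet for the 48 members, for 18 other genes whose values are given above, for the mean log2 level of all members and of each role, and for 4 ratios between members. In 20 of these 152 groups of 5 rats the ratio exceeded its 95% critical value, where chance gives about 8 in separate groups. The genes of a rat share 1 library, so the groups are not separate. In 17 of the 20 groups the rat was control rat 1.

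Among the tubulins, dynein genes and ciliary GTPases, control rat 1 was high for TUBB5 (154 rescaled TPM, against 74.3 to 84.1 in the other control rats), DYNLRB1 (481, against 404 to 415), ARL2 (114, against 60.7 to 66.7), ARL2BP (144, against 105 to 114), ARL3 (148, against 88.0 to 99.2) and IFT20 (66.8, against 47.6 to 52.6). It was low for DYNC1LI2 (32.4, against 48.2 to 54.4). Among the other members it was high for CFAP126 (362, against 204 to 228), CCDC181 (61.1, against 44.2 to 48.3) and CCDC12 (77.9, against 41.2 to 46.3), and low for CCDC47 (82.7, against 130 to 134) and ARL1 (86.5, against 136 to 150). Outside the members it was high for UNC119 (164, against 128 to 137), TTR (532178, against 316580 to 326440) and PLVAP (97.5, against 53.8 to 62.4), and low for KL (273, against 379 to 414) and RGS5 (42.8, against 106 to 110).

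Control rat 2 was high for ARL6IP1 (630, against 390 to 443 in the other control rats). HFD-fed rat 5 was low for CCDC107 (62.8, against 73.0 to 75.6 in the other HFD-fed rats), and HFD-fed rat 1 was low for ZMYND10 (62.3, against 66.8 to 68.5).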

How the results depend on the processing

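TPM as deposited gave 0 called members in place of 5, 0 members whose diets do not overlap in place of 2, and a median log2 fold change of the members of 0.0112 in place of -0.092. The scaling itself shifts all genes of a rat alike, and with TPM as deposited 5.11% of all genes tested and 5.7% of the named genes were called, and 1.65% and 2.2% did not overlap. Array weights, which give less weight to rats that vary more, gave 9 called members, all lower (18.8%, against 8.2% of all genes tested and 22.2% of the named genes), and 3 genes overall with an adjusted p under 0.05, none of them a member, and without a filter on low values there was 1 such gene overall. Leaving out 1 rat in turn gave 4 to 8 called members (8 without control rat 1), 4 to 8 lower, 0 to 2 higher (2 without control rat 2), 2 to 5 whose diets do not overlap (5 without control rat 2, 4 without HFD-fed rat 4), and a median log2 fold change from -0.1289 to -0.0561. In the same fits 3.68% to 6.33% of all genes tested and 8.85% to 17.0% of the named genes were called lower. For the members this was 8.33% to 16.7%. Called higher were 2.81% to 5.41% of all genes tested, 1.05% to 2.55% of the named genes and 0.0% to 4.17% of the members. In the same order, 4.1% to 5.97%, 7.7% to 13.6% and 4.17% to 10.4% did not overlap. TEKT1 had an unadjusted p under 0.05 in 9 of these 10 fits, not without HFD-fed rat 1, and the other 4 called members in all 10.

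Of all 48 members, 24 kept the sign of their log2 fold change in all 17 alternatives and 24 turned in at least 1, with 17 turned by TPM as deposited, which shifts all genes together, and 7 without control rat 1. Of the 24 members picked by the naming rule, 17 kept their direction throughout and 7 did not, as follows. With TPM as deposited, the log2 fold change was 0.0148 for ARL2BP, 0.0439 for CFAP300, 0.048 for CFAP36, 0.0383 for DYNLL2 and 0.0559 for TUBA1A. With array weights it was -0.0369 for ARL6, -0.1057 for DYNC1LI2 and 0.0447 for TUBA1A. Without control rat 1 it was -0.0244 for ARL6, -0.1136 for DYNC1LI2 and 0.0023 for TUBA1A. ARL6 also had -0.002 without HFD-fed rat 2 and -0.014 without HFD-fed rat 4. Over the 10 fits that left out 1 rat, the range was -0.0244 to 0.028 for ARL6, -0.1136 to 0.0747 for DYNC1LI2 and -0.1009 to 0.0023 for TUBA1A. Both diets share the replicate numbers. Between the diets, correlations of same-numbered rats ran from -0.038 to 0.116, and those of differently numbered rats from -0.127 to 0.126. These values do not settle whether the numbers pair the rats. With the replicate number as a block 5 members were called, with DYNLRB2 in the place of TEKT1. All were lower (10.4%, against 5.05% of all genes tested and 12.5% of the named genes), and 0 genes had an adjusted p under 0.05. The number of rats limits the precision, and depth is unknown.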
